A study of Mus musculus with 2 samples.

Results

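Ferritin and iron transport genes were followed in Neuro2a cells, a mouse neuroblastoma line, after knockdown of CPEB1, a protein that binds cytoplasmic polyadenylation elements in mRNAs. The 10 genes were Fth1, Ftl1, Tfrc, Slc11a2, Steap3, Slc40a1, Hfe, Ireb2, Aco1 and Ncoa4. Every probe set that the platform annotation assigned to one of them was taken, which gave 28 of the 45101 probe sets on the array, whereas the array named 18202 genes by a probe set of their own. Of the 28, 3 also listed other genes (all of Ftl1), and 3 were manufacturer's control probe sets for Tfrc. The study compared Neuro2a cells transfected with a control siRNA (siControl) with cells transfected with an siRNA against Cpeb1 (siCPEB1). Both were cultured in serum-containing medium and were profiled 24 h after transfection of Stealth siRNA with Lipofectamine RNAiMAX. Each condition had 1 Affymetrix Mouse Genome 430 2.0 array, so no test of a difference between conditions was possible. The log2 ratios below are siCPEB1 over siControl after each array was divided by its median signal, and past 2-fold is a description only.

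Cells take up most of their iron as transferrin through the transferrin receptor, reduce it in the endosome with the ferrireductase STEAP3 and pass it to the cytosol through the divalent metal transporter SLC11A2. Iron that is not used is kept inside ferritin, a hollow shell of heavy (FTH1) and light (FTL1) chains, from which NCOA4 releases it by carrying ferritin to the lysosome, and ferroportin (SLC40A1) is the exporter. The iron regulatory proteins ACO1 and IREB2 bind iron-responsive elements in ferritin, transferrin receptor and ferroportin mRNAs, and thereby couple ferritin translation and receptor mRNA stability to the iron supply. An array measures the mRNA and gives no account of translation or of iron itself.

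The promoter sequences of the ferritin chains are given because the signals of both were lower in siCPEB1-transfected cells, and that of Hfe because its signal was higher. They are from RefSeq on build GRCm38.p6, 5′ to 3′ on the gene's strand, and end before the annotated start. Fth1 was taken from chr19:9982526-9982645 on the plus strand, Ftl1 from chr7:45459887-45460006 on the minus strand and Hfe from chr13:23710895-23710944 on the minus strand. Capitals mark a CCAAT box on the opposite strand (read as ATTGG) in Fth1 and Ftl1, and the letters of an antioxidant response element (TGACNNNGC) in Hfe.
Fth1: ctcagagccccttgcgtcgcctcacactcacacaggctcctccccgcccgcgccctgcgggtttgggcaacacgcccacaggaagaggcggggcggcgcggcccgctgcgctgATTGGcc
Ftl1: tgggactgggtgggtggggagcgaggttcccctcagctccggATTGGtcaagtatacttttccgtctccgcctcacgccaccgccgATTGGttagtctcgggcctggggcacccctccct
Hfe: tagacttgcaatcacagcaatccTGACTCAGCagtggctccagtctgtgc

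RefSeq windows of 250 bases before to 50 bases after the start were at hand for 8 of the 10 genes, 15 windows in all, with none for Slc11a2 and Slc40a1. CCAAT was found on either strand in 4 of the 15, compared with 37.4% of all 32851 windows, and was searched for only after the sequences had been seen. In Ftl1 it stood at bases -78 to -74 and -34 to -30 from the start, and in 1 of the 2 Fth1 windows at -7 to -3. It was also in 1 of the 4 Steap3 windows at -18 to -14 and in 1 of the 2 Tfrc windows at -124 to -120. TGACNNNGC was found in 2 of the 15, Hfe at -67 to -59 and 1 of the 3 Ncoa4 windows at -44 to -36, compared with 12.4% of all windows. The hypoxia response element ACGTG was present in 4 of 15 (Ncoa4 in 2 windows, and 1 Tfrc site in both of its overlapping windows), compared with 19.6%. The E-box CACGTG, which contains ACGTG, was in 0 of 15 (7.15% of all windows). The bulge and loop letters of an iron-responsive element were in 0 of 15 when read on the transcript strand over the 50 bases after the start (1.55% of all windows). The rest of each mRNA was not searched, so this does not tell whether these mRNAs carry the element. A match is a description of letters and was not examined as a binding site.

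Knockdown of the target was visible on the arrays. The Cpeb1 signal was 302 in siControl- and 38.5 in siCPEB1-transfected cells, 8.08-fold lower. The array medians were close, at 21.0 and 21.6. Of 9 sympathetic neuroblast markers with a probe set, 8 passed the filter on low signal in Neuro2a cells and Th was too dim. The summed signal of the markers was 10673 in siControl and 13333 in siCPEB1, and Gata3, Mycn and Phox2a were more than 2-fold higher (log2 ratios 1.86, 1.32 and 1.31). Stmn2 went the other way at both of its probe sets (-0.34 and -0.69), as did another Mycn probe set, with 34.4 and 18.0 (-0.97). Their part in the iron gene values was not tested. Macrophage markers, of which 2 of 6 passed the filter, summed to 94.3 and 136, and erythroid markers, of which 1 of 6 passed, to 62.5 and 92.9. No hepatocyte marker passed, with sums of 60.6 and 77.5. These sums add the unscaled signals of every probe set of the markers, also those that failed the filter, so the brightest weigh most. Of the macrophage markers, Tyrobp had 9.62 and 22.8 (2.31-fold higher) and Csf1r 39.5 and 43.1 at its brightest probe set, and the erythroid marker Epor had 51.2 and 66.9. By contrast, Ptprc (0.252 and 5.04 in siControl, 5.33 and 1.50 in siCPEB1) and Hba-a1 (1.68 and 1.29) were below both arrays' 25th percentiles of 5.07 and 5.62. The ratio of 3′ to 5′ control signal was 0.798 and 0.782 for Gapdh and 1.27 and 1.35 for Actb.

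Among the 25 probe sets of the iron genes that were not array controls, 23 passed the filter, for which 1 signal had to reach its array's median and the other its array's 25th percentile. Of these 23, 2 were more than 2-fold higher in siCPEB1-transfected cells (8.70%), compared with 971 of 23655 probe sets over the whole array (4.10%). A further 3 were more than 2-fold lower (13.0%), compared with 1073 of 23655 (4.54%). The genes were chosen with earlier results of these data known, so these shares do not tell whether iron genes changed more often than others. Of the 3, 2 were Steap3 probe sets, which passed the filter through the siControl array alone. The count of 3 lower probe sets became 1, Ftl1 1422301_at, when both arrays had to reach the median (670 over the whole array). It also became 1 without _x_at, _s_at, _a_at and several-gene probe sets (790 over the whole array), and when genes were counted (453 of 11554 genes). There it was Steap3 1423468_at, since every Ftl1 probe set lists another gene. No lower probe set therefore held under every setting. The 2 higher probe sets belonged to Slc40a1 and Hfe, and the 3 lower ones to Ftl1 and Steap3. The balance over the whole array depended on the scaling, since scaling to the poly-A spike-in controls without Trp gave 1648 higher and 591 lower. The remaining 18 probe sets of the iron genes stayed inside 2-fold.

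**Figure D1:**
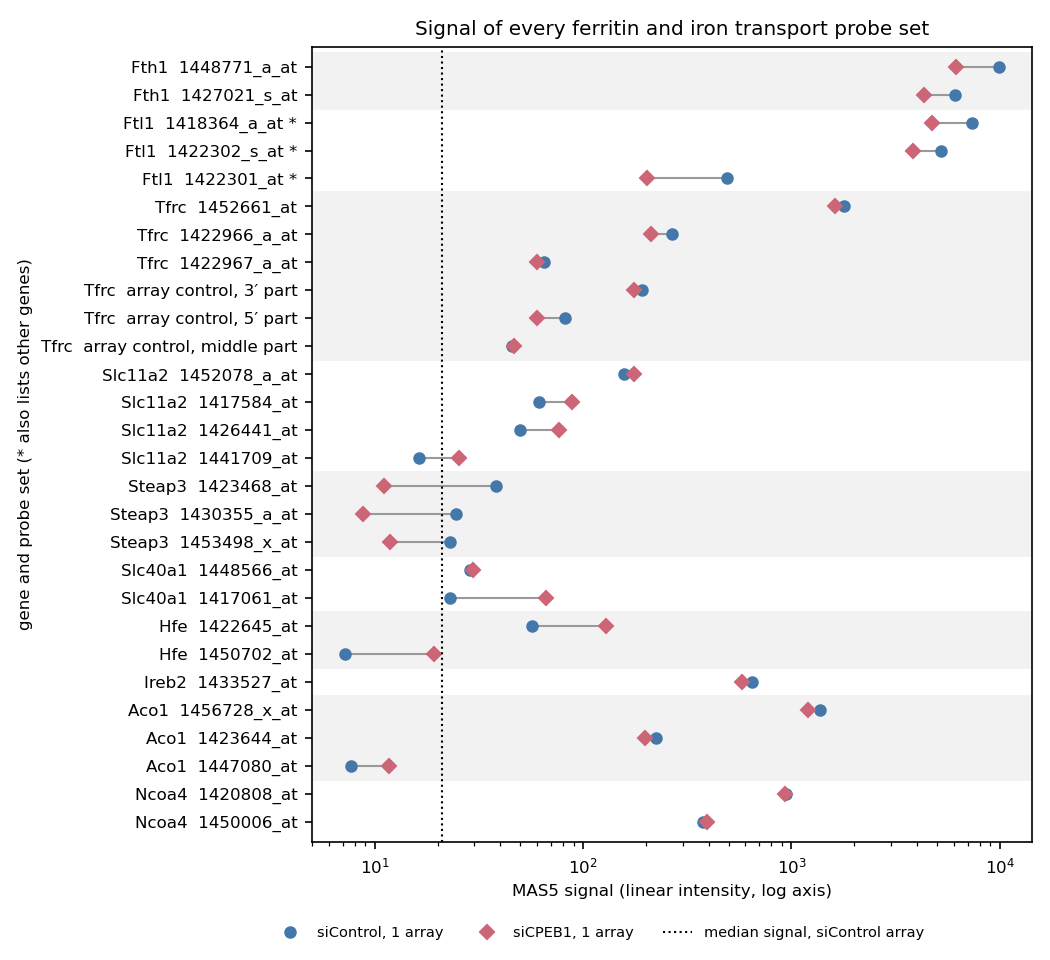
MAS5 signal (linear intensity on a log axis) of all 28 probe sets of the 10 genes, with 1 point for the siControl array and 1 for the siCPEB1 array, and the siControl array's median dotted. The 5 ferritin probe sets have the siCPEB1 point to the left of the siControl point, and the 3 Steap3 probe sets cross the median. Signals of different probe sets are not comparable with each other.

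Both ferritin chains had lower signals in siCPEB1-transfected cells. All 5 ferritin probe sets had ratios below 0, from -1.31 to -0.50 on the log2 scale, with a median of -0.68. In a whole culture, fewer cells of a kind and less RNA per cell cannot be told apart. Fth1 encodes the heavy chain, which carries the ferroxidase site. At the first Fth1 probe set, 1448771_a_at, the signal was 9941 in siControl and 6147 in siCPEB1, which after scaling was 60.1% of the siControl level (log2 ratio -0.73). The second, 1427021_s_at, had 6104 and 4323, or 68.9% of siControl (log2 ratio -0.54). Both list Fth1 alone, and they differed from each other by 0.20 in log2 ratio. The setting without _x_at, _s_at, _a_at and several-gene probe sets left both out, and all those of Ftl1, so it held no ferritin probe set.

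Ftl1 encodes the light chain, which promotes storage of the iron core. All 3 of its probe sets also list the pseudogene Ftl1-ps2, so their signals cannot be assigned to Ftl1 alone. The probe set 1418364_a_at had 7359 in siControl and 4724 in siCPEB1, 62.4% of siControl (log2 ratio -0.68). At 1422302_s_at the signal was 5250 and 3827, 70.9% of siControl (log2 ratio -0.50). These 2 ratios lay close to those of Fth1. The third, 1422301_at, which additionally lists the microRNA genes Mir692-1, Mir692-2 and Mir692-3, had 492 and 204 and was 2.48-fold lower (log2 ratio -1.31). It was the only ferritin probe set past 2-fold.

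The arrays hold no replicate, and a spread within them was used as a yardstick. Where 1 gene had several probe sets, their log2 ratios differed with an SD of 0.21 at the brightest of 10 levels of signal and of 0.67 at the dimmest. This SD covers probe sets and not cultures. The 4 bright ferritin probe sets were each lower by more than 0.21. Bright probe sets leaned downward as a whole, however, in a comparison that was added after the values were seen. The 410 probe sets on the array at least as bright as the dimmest of these 4 (geometric mean signal of 4482) had a median log2 ratio of -0.21, and 350 of them were below 0. Their 5th percentile was -0.52, so Fth1 1448771_a_at, Fth1 1427021_s_at and Ftl1 1418364_a_at lay under it and Ftl1 1422302_s_at did not. Counting from the lowest ratio of the 410, Fth1 1448771_a_at stood at place 2, Ftl1 1418364_a_at at 7, Fth1 1427021_s_at at 19 and Ftl1 1422302_s_at at 27. Loess and quantile normalization, which remove a trend with signal, left Fth1 1448771_a_at at -0.57 and -0.53 and Fth1 1427021_s_at at -0.40 and -0.37. They left Ftl1 1418364_a_at at -0.53 and -0.49 and Ftl1 1422302_s_at at -0.36 under both. Over 7 other scalings the Fth1 ratio ran from -0.73 to -0.51 at 1448771_a_at and from -0.54 to -0.32 at the other. For Ftl1 it ran from -0.68 to -0.46 at 1418364_a_at, from -0.50 to -0.28 at 1422302_s_at and from -1.31 to -1.09 at 1422301_at. Every ferritin ratio was below 0 under each of those 7. Apart from loess and quantile normalization, however, these move every ratio by 1 constant, too small to turn ratios of -0.50 or lower.

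**Figure D2:**
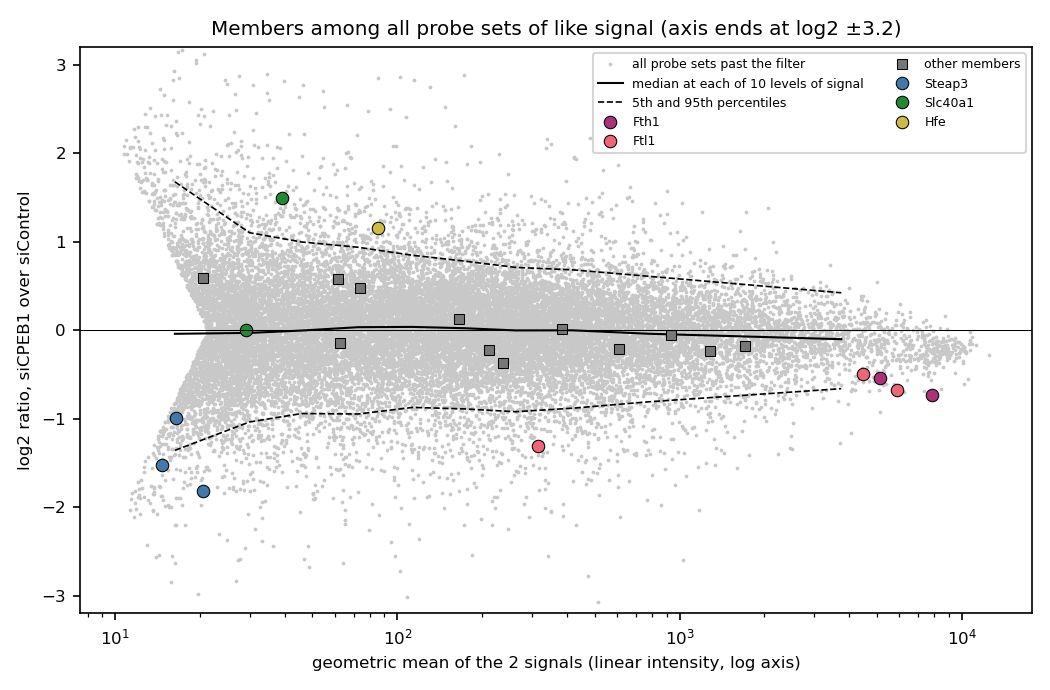
Log2 ratio of siCPEB1 over siControl against the geometric mean of the 2 signals (log axis) for the 23655 probe sets that passed the filter (grey) and for the iron genes (circles for the genes in the key, squares for the other iron genes), with the median and the 5th and 95th percentiles at 10 levels of signal. All ferritin probe sets lie below 0, with Fth1 1427021_s_at and Ftl1 1422302_s_at above the 5th percentile of the brightest level (-0.66), and the Steap3 probe sets lie at the dim edge that the filter draws. Points past ±3.2 are off the axis.

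Uptake genes differed among themselves. The transferrin receptor, Tfrc, had ratios from -0.48 to 0.00 over its 6 probe sets. The brightest, 1452661_at, was 1788 in siControl and 1620 in siCPEB1 (log2 ratio -0.18), and 1422966_a_at was 266 and 212 (log2 ratio -0.37). At 1422967_a_at the signals were 64.7 and 60.2 (log2 ratio -0.14). Of these 3, only 1422966_a_at exceeded the SD at its signal, 0.30. The control probe sets for the 3′ part, the middle and the 5′ part of the Tfrc mRNA had signals of 192, 45.3 and 81.4 in siControl and of 175, 46.8 and 60.2 in siCPEB1. Their log2 ratios were -0.18, 0.00 and -0.48, and the 3′ to 5′ quotient was 2.36 in siControl and 2.91 in siCPEB1. Its part in the Tfrc ratios was not tested. Scaling to the poly-A controls without Trp put 3 of the 5 negative Tfrc ratios above 0, so that no direction can be given for this gene.

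Steap3, the endosomal ferrireductase of the transferrin cycle, was lower at all 3 probe sets, but from signals near the array median. At 1423468_at the signal was 38.1 in siControl and 11.1 in siCPEB1 (log2 ratio -1.82), and at 1430355_a_at it was 24.5 and 8.79 (log2 ratio -1.52). The third, 1453498_x_at, had 22.9 and 11.8 and a log2 ratio of -0.997, just short of 2-fold. All 3 siCPEB1 signals were under that array's median of 21.6, so the probe sets passed the filter through the siControl array alone. With signals under the median set at the median, Steap3 was 1.81-fold lower at 1423468_at, 1.16-fold at 1430355_a_at and 1.09-fold at 1453498_x_at. These are bounds only if the siControl signals are taken as exact. The yardstick SD at this signal was 0.67. With 16 added to both signals the first 2 ratios became -1.02 and -0.73.

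Slc11a2, which carries ferrous iron out of the endosome, was higher at all 4 probe sets without reaching 2-fold. The signal at 1452078_a_at was 156 in siControl and 176 in siCPEB1 (log2 ratio 0.13), and at 1417584_at it was 61.5 and 88.3 (log2 ratio 0.48). At 1426441_at it was 49.7 and 76.1 (log2 ratio 0.58), and at 1441709_at, whose siControl signal was under the array median, 16.4 and 25.4 (log2 ratio 0.59). The middle 2 exceeded the SD of 0.36 at their signal, whereas the first and the last did not exceed theirs (0.31 and 0.67). All 4 ratios were above 0 under the 7 other scalings. Apart from loess and quantile normalization, however, these move every ratio by 1 constant, upward or by almost nothing. They could not have turned a ratio above 0.

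**Figure D3:**
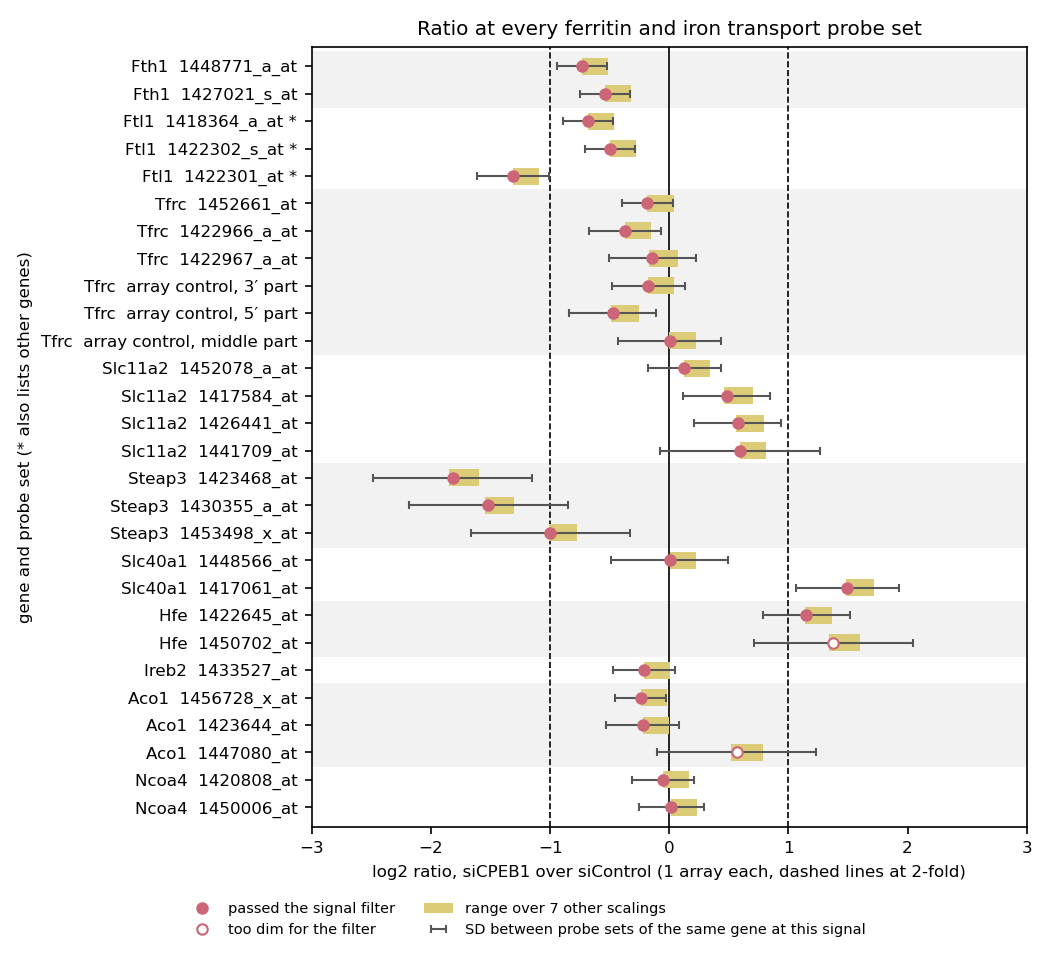
Log2 ratio of siCPEB1 over siControl (1 array each) at every probe set, with bars for the SD over a gene's probe sets at a like signal, yellow bands for the range over 7 other scalings and dashed lines at 2-fold. Ferritin and Steap3 lie left of 0 and Slc11a2 and Hfe right of it, while the 2 Slc40a1 probe sets stand apart, at 0.00 and 1.50. Open circles are the 2 probe sets too dim for the filter.

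The probe sets for the iron exporter Slc40a1 (ferroportin) disagreed. At 1417061_at the signal was 23.0 in siControl and 66.6 in siCPEB1, 2.82-fold higher (log2 ratio 1.50). At 1448566_at it was 28.7 and 29.6 (log2 ratio 0.00). Both list Slc40a1 alone, and the gap of 1.49 between them was larger than the SD of 0.49 and 0.43 at their signals. The siControl signal of 1417061_at was close to the array median of 21.0, and with 16 added to both signals its log2 ratio became 1.06.

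Hfe, a membrane protein that binds the transferrin receptor and takes part in iron sensing, was higher at both of its probe sets. At 1422645_at the signal was 56.5 in siControl and 129 in siCPEB1, 2.22-fold higher (log2 ratio 1.15). The ratio ran from 1.14 to 1.37 over the 7 other scalings, exceeded the SD of 0.36 at this signal, and was 0.98 with 16 added. Those scalings move every ratio by 1 constant, apart from loess and quantile normalization. The other, 1450702_at, had 7.16 and 19.1, under the median on both arrays, and did not pass the filter (log2 ratio 1.38).

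The genes for iron sensing and ferritin turnover had small ratios. Over the 5 probe sets of Ireb2, Aco1 and Ncoa4 that passed the filter, the log2 ratio ran from -0.24 to 0.02 with a median of -0.21. Ireb2 (iron regulatory protein 2) had 650 in siControl and 578 in siCPEB1 (log2 ratio -0.21). Aco1, which acts as cytosolic aconitase or as iron regulatory protein 1, had 1372 and 1194 at 1456728_x_at (log2 ratio -0.24) and 224 and 198 at 1423644_at (log2 ratio -0.22). The other Aco1 probe set, 1447080_at, was too dim for the filter at 7.71 and 11.8 (log2 ratio 0.57). Ncoa4, the cargo receptor for ferritin breakdown, had 936 and 930 at 1420808_at (log2 ratio -0.05) and 377 and 392 at 1450006_at (log2 ratio 0.02). Of these 5 ratios, only Aco1 1456728_x_at exceeded the SD at its signal (0.21). Its ratio was -0.17 under both loess and quantile normalization, which remove a trend with signal, and was then inside that SD. The ratios of Ireb2 and of Ncoa4 1420808_at turned above 0 under scaling to the poly-A controls without Trp, and the latter also under 3 other scalings.

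Other genes of iron handling were read from 7 lists, each gene by 1 probe set. Over all 11554 genes measured in this way the median log2 ratio was 0.01, 49.5% were below 0, 4.58% were more than 2-fold higher and 3.92% more than 2-fold lower. In the list of the transferrin cycle, iron uptake and ferrireductases, 9 of 16 genes were measured, 5 of them below 0, with a median of -0.01. The gene past 2-fold there was Steap1, a relative of Steap3, with 96.5 in siControl and 26.5 in siCPEB1 (log2 ratio -1.90). Another Steap1 probe set had 164 and 68.7 (log2 ratio -1.29).

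Of the iron export, ferroxidase and hepcidin list, 5 of 15 genes were measured and none passed 2-fold (median -0.22). The lowest was Neo1 at -0.68, a co-receptor of hepcidin regulation, and the highest was Tmprss6 at 0.89, a protease of the same route. Iron chaperones, sensing and ferritin turnover had 14 of 16 genes measured, again none past 2-fold, with a median of -0.06, from Sqstm1 at -0.63 (an autophagy receptor) to Pcbp3 at 0.38. Other mRNAs known to carry an iron-responsive element had 5 of 9 measured, 2 below 0, with a median of 0.17, from Cdc42bpa at -0.31 to Pfn2 at 0.50.

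In haem synthesis, transport and breakdown, 17 of 19 genes were measured, 9 of them below 0, with a median of -0.05. Cpox, coproporphyrinogen oxidase, was past 2-fold, with 448 in siControl and 213 in siCPEB1 (log2 ratio -1.11). Of the mitochondrial iron and iron-sulfur cluster genes, 25 of 30 were measured, 13 of them below 0, with a median of -0.03. Nfu1, which hands assembled clusters to target proteins, was past 2-fold, with 1530 and 718 (log2 ratio -1.13). Another Nfu1 probe set, with 1205 and 679, was not (log2 ratio -0.87). The antioxidant response genes of NRF2, a factor under which ferritin chains are also transcribed, had 18 of 20 measured and 13 below 0 (72.2%), with a median of -0.21. None passed 2-fold, and they ran from Slc7a11 at -0.83, the cystine carrier, to Gclm at 0.55, a subunit of the enzyme that starts glutathione synthesis. The 49.5% below 0 over all genes was not matched for signal, and bright probe sets leaned downward as a whole. Loess and quantile normalization gave NRF2 medians of -0.16 and -0.15. Under the poly-A controls without Trp the NRF2 median became 0.00.

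**Figure D4:**
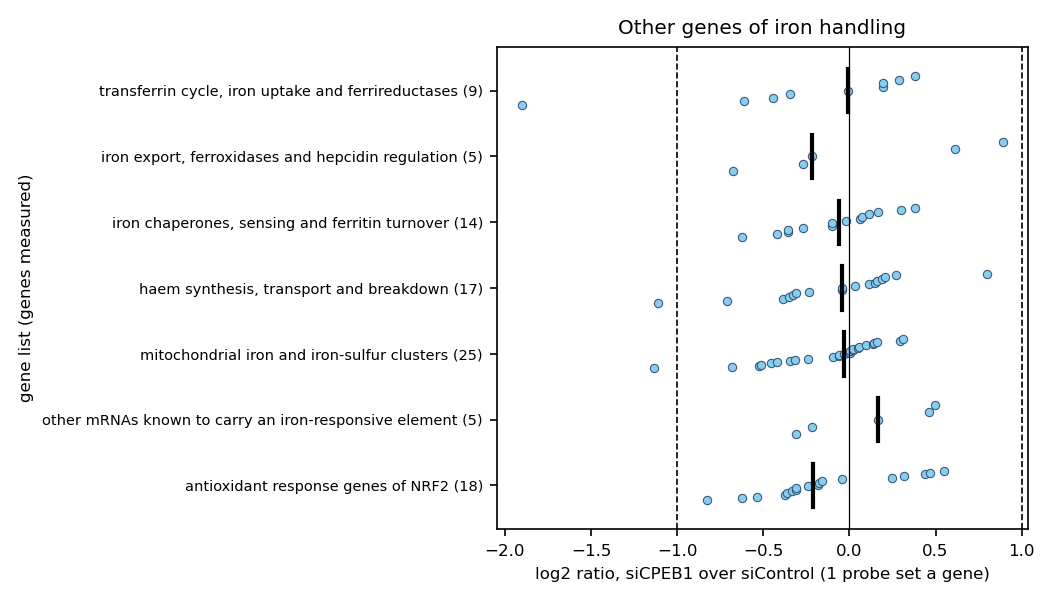
Log2 ratio of siCPEB1 over siControl for the genes of 7 lists related to iron, 1 point a gene, with the number of genes measured beside each name, the list's median as a black bar and dashed lines at 2-fold. The points past 2-fold, each in a different list, are Steap1 at -1.90, Cpox at -1.11 and Nfu1 at -1.13.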

How the data were processed

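Total RNA of siControl- and siCPEB1-transfected Neuro2a cells was hybridized by the authors to 1 Affymetrix Mouse Genome 430 2.0 array each. The deposited values were MAS5 signals, a linear intensity per probe set, made with Affymetrix Expression Console according to the submitters' processing notes. Their scaling target and versions are not given in the sources used here, and the number of arrays limits the precision. MAS5 can leave dim signals near 0, so ratios of dim probe sets are unstable.

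Groups were taken from the sample labels. Probe sets were named through the platform annotation, in which 34970 had 1 gene symbol, 920 several and 9211 none. Each array was divided by its median signal, and log2 ratios were taken (Python 3.11.15, pandas 2.3.3, numpy 2.4.6). The filter on low signal kept a probe set if 1 signal reached its array's median and the other at least its array's 25th percentile, and left out array controls. A listed gene was represented by its brightest probe set past the filter, with _x_at and _s_at probe sets used only where no other passed. No p-values were computed. The yardstick was the SD between the log2 ratios of probe sets of the same gene (14939 probe sets of 5531 genes, 0.37 when pooled) at 10 levels of signal. The scaling, filter and counts were run on simulated data as a check of the code. This does not tell how far the counts hold at dim signals on these arrays.

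All 10 genes were named with every probe set, as was Cpeb1. Of each list, up to 4 genes past 2-fold were named and otherwise those with the highest and lowest ratio. The genes and lists were chosen with earlier results of these data known. Alternatives were no scaling, scaling to the 75th percentile, to poly-A controls (all 27, or 24 without Trp) or to 18 hybridization controls, quantile normalization, loess with a span of 0.3 (statsmodels 0.14.6), 16 added to each signal, signals under the median set at it, other filters and other choices of probe set.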

Additional observations from a re-analysis of the deposited data

How the results depend on the processing

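With 1 array per condition, no value has an error between cultures, and signals near the array median limit Steap3, Slc40a1 and the second Hfe probe set. Of 252 recomputed ratios of single probe sets, 238 moved by less than the SD at their signal and 14 by more. Many of the 238 could not have moved by more, so the count does not show robustness. Scalings by 1 constant, other than to poly-A controls without Trp, moved every ratio by less than the smallest SD of 0.21. Setting signals under the median at it left brighter probe sets unchanged. The 6 ratios moved past the SD by poly-A controls without Trp included those of the 4 bright ferritin probe sets. The scaling to poly-A controls without Trp, chosen after seeing the data because Trp signals were at most 3.58, turned the sign of 5 of the 28 ratios (Tfrc, Ireb2 and Ncoa4), hybridization controls of 2, quantile normalization of 2, loess of 1 and the others of 0. These spike-ins had mean log2 ratios of -0.22 (SD 0.18, n = 24) and -0.17 (SD 0.08, n = 18), so that scaling to them raised every ratio by as much, and the medians of the iron lists by the same amount. The cause was not tested.

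Iron gene probe sets more than 2-fold higher were 1 in place of 2 with 16 added. Those more than 2-fold lower were 1 in place of 3 when both arrays had to reach the median. They were also 1 without _x_at, _s_at, _a_at and several-gene probe sets, and 1 when genes were counted. Over the whole array, higher and lower probe sets numbered 1461 and 688 with hybridization controls, 1648 and 591 with poly-A controls without Trp, 420 and 489 with 16 added, 6166 and 5586 with no filter, and 487 and 670 with the median in both arrays. The macrophage marker median was 0.14 with no filter and 0.086 with the median in both arrays, in place of 0.65, and the erythroid median -0.041 with no filter, in place of 0.35. No paired analysis was possible because the labels give 1 array per condition and no replicate number.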

Other observations

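Lcn2, which encodes a lipocalin that binds iron-carrying siderophores, was chosen after its values were seen. Its only probe set read 113 in siControl-transfected cells and 1.58 after Cpeb1 knockdown. It did not pass the filter, since the siCPEB1 signal was under the 25th percentile of 5.62, and is therefore in none of the counts above. With signals under the median set at the median, it was 5.39-fold lower, which is a bound only if the siControl signal is taken as exact.

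Second probe sets of listed genes differed in some cases from those used. Slc46a1, a haem and folate carrier, had a log2 ratio of 0.80 at the probe set used (28.0 and 50.1) and of 1.08 at the other (42.1 and 91.5). Only the latter was past 2-fold, but the gap was within the yardstick SD of 0.43 and 0.36 at such signals. Tfr2, the second transferrin receptor, had -0.44 at the probe set used (128 and 96.8) and -1.27 at the other (153 and 65.2). For Alad, an early enzyme of haem synthesis, they had opposite signs, at -0.71 (1024 and 642) and 1.64 (15.2 and 48.8). Which probe set of Tfr2 and of Alad follows the mRNA was not tested.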
